A study of Mus musculus with 6 samples.

Results

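The apolipoprotein genes examined here were Apoa1, Apoa2, Apoa4, Apoa5, Apob, Apoc1, Apoc2, Apoc3, Apoe and Apom, 10 genes in all. Their members were the FXR ChIP-seq peaks in mouse liver that the authors had assigned to one of these genes as the nearest transcription start site (TSS). There were 50 such peaks of 32535 in both lists, namely 33 of 20040 in the control list and 17 of 12495 in the knockout list. Both genotypes were male mice on a C57BL/6 background. Control mice were Bcl6 fl/fl, written WT here, and carried loxP-flanked Bcl6 alleles without Cre. Knockout mice were Alb-cre, Bcl6 fl/fl, written LKO here, and carried the same floxed alleles with Cre driven by the albumin promoter, which deletes Bcl6 in hepatocytes and leaves it in the other cells of the liver. Ages are not given in the sources used here, and the methods describe mice as either fed ad libitum or briefly fasted, without naming which applied to these livers. FXR was immunoprecipitated in 2 liver samples of each genotype, and 1 input library per genotype was sequenced from chromatin without immunoprecipitation. FXR is the nuclear receptor that senses bile acids, and BCL6 is a transcriptional repressor. The comparison asks where FXR lies at the apolipoprotein genes, and whether that differs when hepatocytes lack BCL6.

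Apolipoproteins are the protein part of lipoproteins, the particles that carry cholesterol and triglyceride in blood, and the liver makes most of them. Some form the scaffold of a particle, as ApoB does in VLDL and LDL and ApoA-I does in HDL, while others switch lipases on or off or serve as ligands of receptors. Several of their genes sit side by side: Apoa1, Apoc3, Apoa4 and Apoa5 form a cluster on chromosome 9, and Apoe, Apoc1 and Apoc2, with Apoc4 between them, form another on chromosome 7. FXR binds DNA as a partner of RXR, preferably at an inverted repeat with 1 base between its arms (IR1). A peak marks where FXR was crosslinked to chromatin. It does not show which gene it acts on, or how much RNA that gene makes. Libraries came from whole liver, so the share of cells bound and the occupancy per cell cannot be told apart.

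The WT libraries held 19022618 and 2883717 tags in replicates 1 and 2, and the LKO libraries held 21287263 and 22637613. WT replicate 2 was therefore shallow. The median apolipoprotein peak held an estimated 44.8 and 9.82 tags in the WT replicates, and an estimated 49.6 and 42.3 tags in the LKO replicates. Peaks were called by the authors on the pooled replicates of a genotype, so counts and overlaps have no replicate spread. As a check of the tissue, 8 of 8 listed liver genes, among them Nr0b2, Abcb11 and Alb, had a WT peak and 7 of 8 an LKO peak. Over all genes, 9025 had a WT peak and 6877 an LKO peak. Of 3 ileal FXR targets, 2 had a WT peak and 3 an LKO peak, so that presence of a peak did not separate the tissues.

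The peaks are named below by gene and by the signed distance in bp of the WT peak centre from its TSS, negative values being upstream. IR1 was searched as the hexamer AGGTCA, 1 free base and the hexamer TGACCT, allowing 2 mismatches over the 12 bases of the hexamers, on both strands, within 100 bp of the peak centre. Sites were found at 7 peaks, and they are shown because they are the sequences at which an FXR dimer would be looked for. They are written 5′ to 3′ on the plus strand of GRCm38.p6, with capitals for bases that match the motif and lower case for mismatches and for the free base.

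Apoa1 -69117, chr9:46159487-46159499: AGtTCgaTGACCT
Apoa1 -64961, chr9:46163728-46163740: AGtgCAcTGACCT
Apoa1 -7135, chr9:46221505-46221517: AGGcCAaTGACCT
Apoc3 -44, chr9:46235308-46235320: AGGgCtgTGACCT
Apoa5 -9422, chr9:46259173-46259185: AGGgCAaaGACCT
Apoc1 +962, chr7:19691719-19691731: AGtTCAaTGACtT
Apoe -1940, chr7:19701115-19701127: AGGcgAgTGACCT

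The Apoa1 -7135 site came closest to the motif, with 1 substitution, T4C, counted from 1 at the 5′ end. The others had 2 substitutions each: G3T and A6G at Apoa1 -69117, G3T and T4G at Apoa1 -64961, T4G and A6T at Apoc3 -44, T4G and T8A at Apoa5 -9422, G3T and C12T at Apoc1 +962, and T4C and C5G at Apoe -1940. At 5 of these 7 peaks, those without T8A or C12T, the second arm was an unaltered TGACCT.

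Whole peaks are shown where the results turn on them, again on the plus strand of GRCm38.p6. The first is the strongest peak of the set, in the Apoa5 promoter, where no IR1 site was found and nothing is capitalised. The next 4 hold an IR1 site, in capitals. That of Apoc3 is cut to the part outside annotated exons. The sixth, in the Apoa2 promoter, holds a direct repeat with 1 free base (DR1) on the minus strand, in capitals. The last, upstream of Apob, held neither.

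Apoa5 promoter, LKO peak at chr9:46268401-46268605: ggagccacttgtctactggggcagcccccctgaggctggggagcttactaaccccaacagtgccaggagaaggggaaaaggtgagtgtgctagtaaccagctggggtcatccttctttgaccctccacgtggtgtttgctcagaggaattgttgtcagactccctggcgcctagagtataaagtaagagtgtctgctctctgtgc
Apoa5 -9422, chr9:46259081-46259291: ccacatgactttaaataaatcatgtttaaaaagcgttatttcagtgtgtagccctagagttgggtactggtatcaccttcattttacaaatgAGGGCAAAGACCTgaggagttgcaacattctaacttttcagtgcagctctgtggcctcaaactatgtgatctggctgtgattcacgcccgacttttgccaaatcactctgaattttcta
Apoa1 -7135, chr9:46221390-46221600: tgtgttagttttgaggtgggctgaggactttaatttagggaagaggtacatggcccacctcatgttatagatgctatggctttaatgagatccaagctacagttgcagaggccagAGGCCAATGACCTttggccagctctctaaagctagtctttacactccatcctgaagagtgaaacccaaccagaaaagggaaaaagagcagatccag
Apoc3 -44, chr9:46235300-46235448: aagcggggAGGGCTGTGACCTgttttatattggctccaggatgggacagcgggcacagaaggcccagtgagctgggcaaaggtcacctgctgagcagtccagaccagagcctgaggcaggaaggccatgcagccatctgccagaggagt
Apoc1 +962, chr7:19691592-19691802: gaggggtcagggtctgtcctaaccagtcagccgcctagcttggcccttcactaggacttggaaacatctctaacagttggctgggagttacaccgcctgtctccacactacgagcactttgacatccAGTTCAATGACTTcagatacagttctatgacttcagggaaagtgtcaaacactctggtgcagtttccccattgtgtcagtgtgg
Apoa2 -126, chr1:171224823-171225033: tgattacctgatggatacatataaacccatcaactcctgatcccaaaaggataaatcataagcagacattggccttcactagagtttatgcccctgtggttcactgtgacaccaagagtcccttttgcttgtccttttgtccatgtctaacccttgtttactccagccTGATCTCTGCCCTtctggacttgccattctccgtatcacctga
Apob -27468, chr12:7950104-7950314: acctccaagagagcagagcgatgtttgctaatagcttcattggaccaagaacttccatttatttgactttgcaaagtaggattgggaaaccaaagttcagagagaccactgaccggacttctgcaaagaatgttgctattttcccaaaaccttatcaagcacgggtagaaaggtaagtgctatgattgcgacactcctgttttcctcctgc

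Peaks were listed for 9 of the 10 genes in WT and for 8 in LKO. Apoa1 had 13 peaks in WT and 6 in LKO, Apob had 6 and 1, Apoa5 had 4 and 3, Apoa2 and Apoc1 had 2 and 2, Apoc2 and Apoc3 had 2 and 1, and Apoe had 1 and 1. Apom had 1 peak in WT and none in LKO. Apoa4 was the one gene with no assigned peak in either list. In WT, 16 of 33 peaks overlapped an LKO peak by at least 1 bp, or 48.5% (95% Wilson interval 32.5 to 64.8%), against 49.5% of all WT peaks. In LKO, 16 of 17 overlapped a WT peak, or 94.1% (73.0 to 98.95%), against 79.4% of all LKO peaks. The WT share thus lay at the background, and the interval of the LKO share included its background. The 1 LKO peak without a WT partner was Apoa1 -2098, at chr9:46226430-46226634, between Sik3 and Apoa1. It held 4.84 and 4.90 log2 tags in the LKO libraries and lay at percentile 55.7 of its list.

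Strength was taken as the mean of the log2 tags in both ChIP libraries of a table, and its percentile among all peaks of the same list is a rank that can be read within a list. The median apolipoprotein peak lay at percentile 52.9 in WT and percentile 62.7 in LKO. These medians include the peaks without a partner. At the 16 shared apolipoprotein peaks alone, the median was percentile 74.7 in WT and percentile 65.7 in LKO. Over all shared peaks, the median was percentile 72.2 in WT and percentile 57.7 in LKO. A lower percentile in LKO was thus common to shared peaks as a group. In each list 3 apolipoprotein peaks lay above the 90th percentile and none above the 99th. They were the same places in both lists: the Apoa5 promoter, Apoe -1940 and Apoa5 -9422. The 17 WT peaks without an LKO partner had a median percentile of 30.3 and reached at most 58.8. All 8 WT peaks above the 75th percentile had an LKO partner, where 87.0% of all WT peaks from the 75th to the 90th percentile and 95.3% above the 90th did. Below the median, 2 of 16 had one, or 12.5%, against 23.5% of all such WT peaks.

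Requiring at least 10 estimated tags in both libraries, a limit chosen after seeing the data, kept 16 WT peaks and 17 LKO peaks. Of those 16, 13 overlapped one of those 17, or 81.2%, against 75.6% of all WT peaks kept. The same limit kept 8864 WT and 12445 LKO peaks in all, so the order of the counts turned over the whole lists as well. Among the 17 WT peaks without a partner, the estimated tags ranged from 12.2 to 46.4 in WT replicate 1. In WT replicate 2, the shallow library, they ranged from 2.62 to 12.2.

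**Figure D1:**
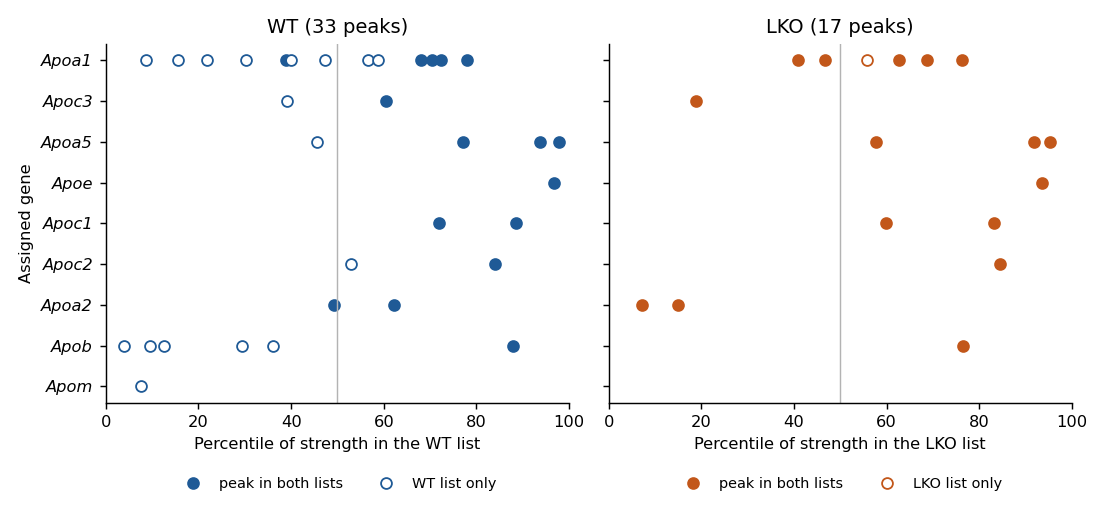
Percentile of strength (x axis, 0 to 100 within each list) of the 33 WT and 17 LKO apolipoprotein peaks by assigned gene (y axis), with filled circles for peaks in both lists and open circles for peaks in 1 list. WT-only peaks end at percentile 58.8, and the Apoa5 and Apoe peaks lie farthest to the right in both lists.

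Apoa5 encodes ApoA-V, a minor plasma protein that promotes triglyceride clearance by lipoprotein lipase, and it carried the strongest apolipoprotein peaks of both lists. Its promoter peak was centred at -101 bp from the TSS in WT, at chr9:46268402-46268612, and at -105 bp in LKO. It held 6.95 and 8.0 log2 tags in WT replicates 1 and 2, an estimated 245 and 76.9 tags, and ranked 421 of 20040. In LKO it held 7.03 and 6.87 log2 tags, an estimated 164 and 156, and ranked 585 of 12495. The input held 0.0010 log2 tags in WT and 0.28 in LKO. In the sequence shown above, the closest match to IR1 had 3 mismatches and the closest match to DR1 had 4, and the exact hexamer AGGTCA was absent.

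The second Apoa5 peak, -9422, was intergenic at chr9:46259081-46259291. It held 6.38 and 7.01 log2 tags in WT, at percentile 93.8, and 6.54 and 6.47 in LKO, at percentile 91.8. Its IR1 site lay 7 bp from the centre of the WT peak. Of the other Apoa5 peaks, -12225 was shared and ranked at percentile 77.2 in WT and percentile 57.7 in LKO. Input at -12225 was 1.80 in WT and -0.038 in LKO. The last, -7212, was in the WT list alone at percentile 45.5.

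Apoc3, on the minus strand between Apoa1 and Apoa4, encodes ApoC-III, an inhibitor of lipoprotein lipase and of the clearance of triglyceride-rich particles. Its promoter peak, centred 44 bp upstream of the TSS at chr9:46235238-46235448, held 4.96 and 4.77 log2 tags in WT, at percentile 60.4. In LKO, the peak held 4.46 and 3.71, at percentile 18.9. Ranked by log2 tags minus input, it lay at percentile 76.5 in WT and 42.3 in LKO. The sequence shown above holds the IR1 site next to the TSS and, farther upstream, a DR1 match. A DR1 is an element known to be bound by HNF4A and by PPARA with RXR. The other Apoc3 peak, +496, lay in intron 1 and in WT alone, at percentile 39.0.

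Apoa4, a gene of chylomicrons and HDL, lies between Apoc3 and Apoa5 and had no assigned peak. Neither list held a peak of any gene between Apoc3 -44 and Apoa5 -12225, a stretch of 20.8 kb that holds the Apoa4 gene. The strength below which peaks were not called differs by list, so absence of a peak is not absence of binding.

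Apoa1 encodes ApoA-I, the main protein of HDL and the activator of LCAT. It had the most peaks, 13 in WT, and 40 of the 9025 genes with a WT peak had at least as many, where the median gene had 1. None lay in its promoter. The authors' annotation put 12 of the 13 in or at the end of Sik3, a salt-inducible kinase gene that ends upstream of Apoa1, 10 of them in Sik3 introns. In LKO, 5 of 6 lay in Sik3 introns. The peaks stretched from -102176 to +2309 bp of the Apoa1 TSS, and the assignment to Apoa1 reflects the nearest TSS alone.

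The strongest Apoa1 peak of WT, -102176 at chr9:46126349-46126559 in intron 2 of Sik3, held 5.22 and 5.78 log2 tags, at percentile 78.0. In LKO, it held 4.80 and 4.55, at percentile 46.7. The strongest of LKO was -64961, in intron 4 of Sik3, with 5.11 and 5.10 log2 tags in WT, at percentile 68.0, and 5.46 and 5.54 in LKO, at percentile 76.2. The order of these peaks thus differed between the lists. The LKO input at -64961 stood at 1.68, and ranked by log2 tags minus input that peak lay at percentile 21.6 in LKO. Of the 8 WT-only Apoa1 peaks, percentiles ran from 8.63 to 58.8.

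**Figure D2:**
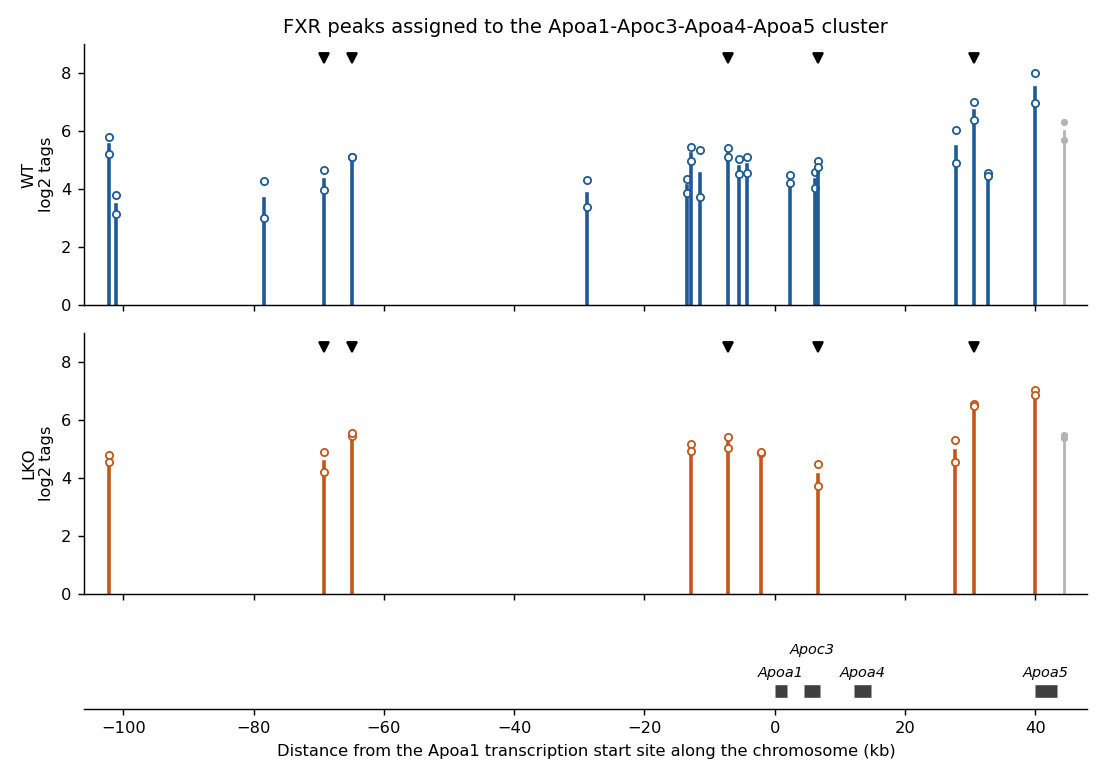
FXR peaks along the chromosome 9 cluster, by distance from the Apoa1 TSS (x axis, kb). Lines give the mean log2 tags (y axis, deposited scale of each table), open circles the 2 libraries, triangles an IR1 site, grey lines peaks assigned to Zpr1, and bars the genes. The 5 IR1 sites fall at peaks present in both panels, and the highest peak of both panels is at Apoa5.

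Peaks were dense on chromosome 9. The 43.3 kb from the start of Apoa1 to the end of Apoa5 held 7 WT and 4 LKO peaks, or 1.62 and 0.924 per 10 kb, against 0.0735 and 0.0458 per 10 kb over the genome. On chromosome 7, the 29.7 kb from Apoc2 to Apoe held 7 WT and 5 LKO peaks, or 2.35 and 1.68 per 10 kb. These spans are rich in genes, and the genome values include long stretches without any. On a grid of 100 kb, the tile with Apoa1, Apoc3, Apoa4 and Apoa5 held 14 WT peaks, 13 of them assigned to these genes, and 5 of 8226 tiles with a WT peak held as many. In LKO it held 8, and 42 of 6459 tiles held as many. The tile with Apoc2 and Apoc1 on chromosome 7 held 6 WT and 4 LKO peaks, and 680 of 8226 and 760 of 6459 tiles held as many. That tile ends at 19700000, short of the Apoe peak at 19701023, so it does not cover its whole cluster. The tile with Apoa2 held 10 WT and 6 LKO peaks, of which 2 and 2 were assigned to Apoa2. As many were held by 60 of 8226 and 192 of 6459 tiles.

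Apoe encodes ApoE, the ligand by which remnant particles are taken up through the LDL receptor family. Its single peak, -1940 at chr7:19701023-19701233, ranked second among the apolipoprotein peaks in both lists. It held 6.89 and 7.50 log2 tags in WT, at rank 647, and 6.89 and 6.60 in LKO, at rank 794. Input values were -0.039 and 0.25. The annotation places it at the transcription end of Tomm40, the neighbouring gene for a mitochondrial import channel. RefSeq also lists a predicted longer Apoe transcript whose first exon covers the peak.

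Apoc1 encodes ApoC-I, a small protein of VLDL and HDL that slows particle uptake, and both of its peaks were shared. The +962 peak, in intron 3, held 5.75 and 6.51 log2 tags in WT, at percentile 88.5, and 5.72 and 5.97 in LKO, at percentile 83.1. Its input was 1.12 in WT and 0.11 in LKO. Ranked by log2 tags minus input, the order turned, with percentile 69.6 in WT and 90.5 in LKO. The upstream peak, -1018, held 4.89 and 5.60 in WT and 4.97 and 4.99 in LKO. Its centres lay 147 bp apart in the lists with an overlap of 61 bp. It was annotated as intergenic in WT and, at -871, as promoter in LKO, the promoter class starting at -1000 bp.

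Apoc2 encodes ApoC-II, the cofactor that lipoprotein lipase requires. The intron 1 peak, +1033, held 5.26 and 6.38 log2 tags in WT, at percentile 84.0, and 6.10 and 5.76 in LKO, at percentile 84.5. Its input value was -0.25 in WT and 2.48 in LKO, the highest of any apolipoprotein peak, though still under the 95th percentile of LKO input. The Apoc2 promoter peak, -219, was in the WT list alone, with 4.07 and 5.26 log2 tags, at percentile 52.9. The chromosome 7 peaks all lay above the median of their list, 5 of 5 in WT and 4 of 4 in LKO. Ranked by log2 tags minus input, however, the LKO peaks at Apoc2 +1033 and Apoc1 -1018 lay at percentiles 17.2 and 15.8, with input at 2.48 and 1.64.

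**Figure D3:**
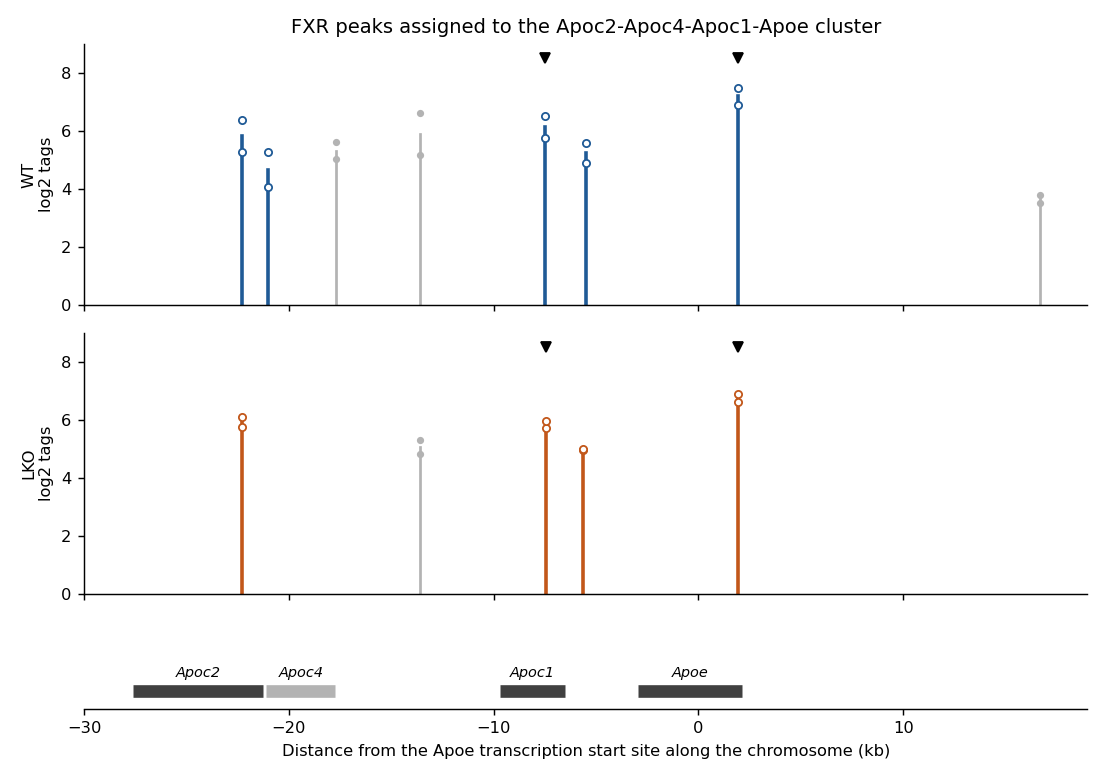
FXR peaks along the chromosome 7 cluster, by distance from the Apoe TSS that the authors used (x axis, kb, all genes shown are on the minus strand). Lines give the mean log2 tags (y axis, deposited scale of each table), open circles the 2 libraries, triangles an IR1 site, grey lines peaks assigned to Gm44805 or Tomm40, black bars the member genes and the grey bar Apoc4. The Apoe peak is the highest in both panels, and the Apoc2 promoter peak is in the WT panel alone.

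Apoa2 encodes ApoA-II, the second protein of HDL, and both of its peaks were shared. The promoter peak, -126 at chr1:171224823-171225033, held 4.23 and 5.60 log2 tags in WT, at percentile 62.2. In LKO, it held 4.68 and 3.02, at percentile 7.24. The input was 1.05 in WT and -0.20 in LKO, and ranked by log2 tags minus input the order turned, with percentile 19.7 in WT and 30.1 in LKO. That turn rests on few input tags. LKO replicate 2 minus replicate 1 was -1.66 on the log2 scale, against a median of -0.17 over all LKO peaks. By LKO replicate 1 alone the peak lay at percentile 41.1, and by replicate 2 alone at percentile 0.544. The other peak, -1001, lay in intron 1 of a longer Apoa2 transcript. It held 4.13 and 5.02 in WT and 4.55 and 3.45 in LKO, and its LKO replicates stood apart in the same direction.

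Apob encodes ApoB, the backbone of VLDL and LDL. It had 6 WT peaks, none in its promoter, from -67469 to +60890 bp of the TSS. One was shared, the intergenic -27468 at chr12:7950104-7950314, with 5.66 and 6.54 log2 tags in WT, at percentile 88.0, and 5.48 and 5.56 in LKO, at percentile 76.6. The other 5 lay between percentiles 3.97 and 36.1 of the WT list. A single one of the 6, +21456 in intron 20, lay within the gene. Apom encodes ApoM, the carrier of sphingosine 1-phosphate on HDL. Its promoter peak, -137, was in the WT list alone with 3.36 and 3.48 log2 tags, at percentile 7.62, and an estimated 20.3 and 3.35 tags.

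Promoter peaks made up 5 of 33 WT peaks, or 15.2% (6.65 to 30.9%), against 11.4% of the list, and 4 of 17 LKO peaks, or 23.5% (9.56 to 47.3%), against 11.3%. Both intervals included the share of the list. Introns held 15 WT and 8 LKO peaks, and intergenic sequence 9 and 4. Input exceeded the 95th percentile of its list at 0 of 33 WT and 0 of 17 LKO peaks, counts too small to be told from 5% of a list. The highest input lay close under that limit, at percentile 92.4 at Apoa5 -12225 in WT and percentile 94.6 at Apoc2 +1033 in LKO.

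Levels at the 16 shared peaks were set side by side as log2 tags minus the median of all 9918 shared peaks in the same library, because the tables had been normalized separately. They are a description, with no test between genotypes. The difference of LKO minus WT had a median of -0.040 and ran from -0.74 to 0.73, where the median over all shared peaks was 0.026. It was above 0 at 8 peaks and below 0 at 8. Both LKO libraries lay above both WT libraries at 5 of 16 peaks, or 31.2%, against 29.8% of all shared peaks. Both lay below at 2 of 16, or 12.5%, against 25.2%. The first share lay near its background, and the second rests on 2 peaks.

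The 5 higher peaks were Apoa1 -64961, with -0.17 ± 0.37 in WT and 0.56 ± 0.19 in LKO (SD, n = 2), Apoc2 +1033, Apoa1 -7135, Apoa1 -12788 and Apoa5 -9422. Their differences were 0.73, 0.44, 0.28, 0.18 and 0.14. After subtraction of input, the differences at Apoa1 -64961 and Apoa1 -7135 fell to 0.25 and 0.076. Those at Apoc2 +1033, Apoa1 -12788 and Apoa5 -9422 turned to -2.17, -1.06 and -0.061. The LKO input at Apoc2 +1033 and Apoa1 -12788 stood at 2.48 and 2.45. Those input values stand for few tags, and the part of input in the differences was not tested. The 2 lower peaks were Apoa1 -102176, with 0.23 ± 0.030 in WT and -0.27 ± 0.042 in LKO, and Apoe -1940, with 1.92 ± 0.058 and 1.80 ± 0.063. Their differences were -0.50 and -0.12. The Apoa5 promoter had 2.21 ± 0.38 in WT and 2.00 ± 0.024 in LKO, and its libraries overlapped. The largest difference of all, -0.74 at the Apoa2 promoter, was smaller than the pooled SD of 0.85 between replicates, and after subtraction of input it was 0.64.

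**Figure D4:**
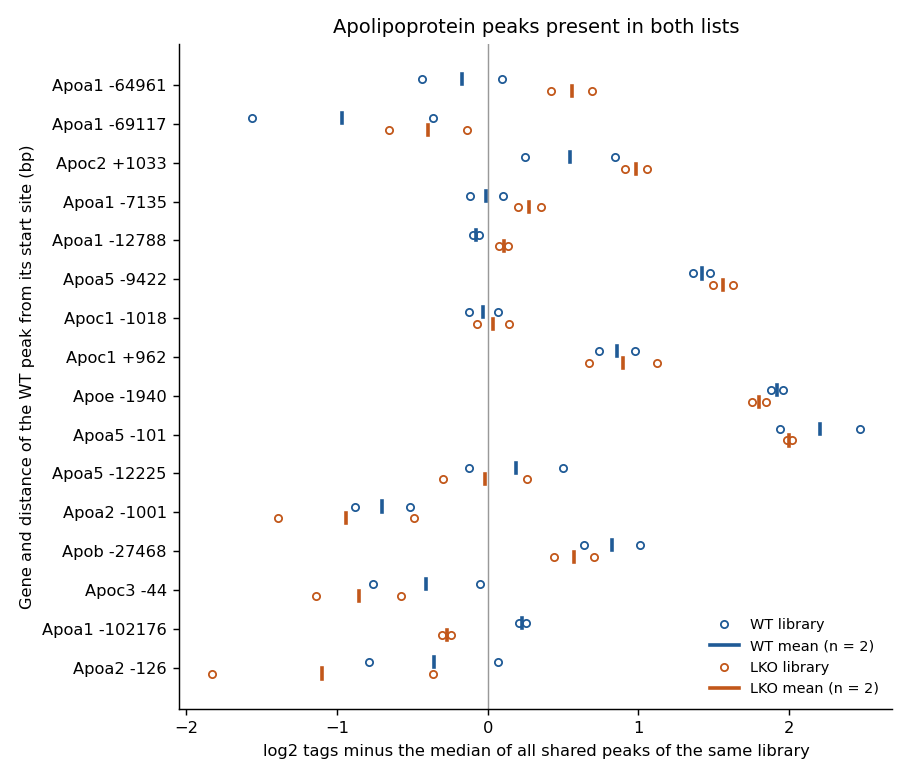
Log2 tags minus the median of all shared peaks of the same library (x axis) at the 16 shared apolipoprotein peaks (y axis, ordered by LKO minus WT), with open circles for libraries and bars for means of 2. At Apoa1 -64961 and Apoa1 -102176 the genotypes are apart in opposite directions, and at 9 peaks the libraries of the genotypes overlap.

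IR1 sites were found at 7 of 33 WT peaks, or 21.2% (10.7 to 37.8%), against 11.8% of all WT peaks and 0.896% of windows 2 kb away. In LKO, they were found at 7 of 17, or 41.2% (21.6 to 64.0%), against 16.2% of all LKO peaks and 0.976% of windows. The LKO interval lay above the share of its list, and the WT interval included it. The sites were the same 7 in both lists. Of the 16 shared WT peaks 7 held one, or 43.8%, against 16.6% of all shared peaks, and of the 17 WT-only peaks 0 did, against 7.16% of all WT-only peaks. By locus, 5 sites lay in the chromosome 9 cluster and 2 in the chromosome 7 cluster, and none at Apoa2, Apob or Apom. Among the 3 peaks above the 90th percentile of WT, 2 held a site, where 25.8% of all such peaks did.

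DR1 matches, found with the same limit of 2 mismatches, lay in 7 WT peaks, or 21.2% (10.7 to 37.8%), against 12.8% of the list. In LKO they lay in 5 peaks, or 29.4% (13.3 to 53.1%), against 11.9%. As for IR1, the LKO interval lay above the share of its list and the WT interval included it. Intervals of both motifs treat neighbouring peaks of a cluster as independent. Both Apoa2 peaks, Apoc3 -44, Apoa1 -69117 and Apoa1 -7135 held a DR1 match in both lists. At Apoa1 -7135, 2 DR1 matches overlapped the IR1 site. The exact hexamer lay in 14 WT peaks, or 42.4%, against 40.3% of the list. The core shared by STAT5 and BCL6 sites, TTC and GAA with 3 bases between them, was found in WT at Apoc1 +962, Apoa1 -12788 and Apoa5 -12225. This is 3 of 33, or 9.09%, against 6.56% of all WT peaks and 6.15% of windows 2 kb away. An LRH-1 site was found at Apoa2 -1001, or 1 of 33 WT peaks, against 1.20% of the list. Both counts are too small to be told from these shares. These are matches of letters and not measured sites.

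Other genes of lipoprotein metabolism were counted from a list of 20. Of these, 15 had a WT peak and 12 an LKO peak, with 61 and 47 peaks in all. Shared peaks made up 67.2% of the WT and 87.2% of the LKO peaks of this list, against 48.5% and 94.1% at the apolipoprotein genes. Scarb1, the HDL receptor, had 13 WT and 10 LKO peaks and reached percentiles 99.6 and 99.7. Lcat, which esterifies HDL cholesterol, and Lipg, an HDL phospholipase, reached percentiles 99.01 and 99.2 in WT. Among further apolipoprotein genes, Apof had 1 peak in each list, at percentiles 91.1 and 85.5. Apon had 2 and 1, Apoh had 1 and 0, and Apoc4 and Apod had none assigned. For Apoc4 this reflects the assignment, since a WT peak at its start site was assigned to Gm44805. Mttp, which loads lipid onto ApoB, and Vldlr had none either.

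Within 20 kb of the apolipoprotein genes, 9 WT and 3 LKO peaks had been assigned to other genes. On chromosome 9 this was the Zpr1 promoter, next to Apoa5, at percentile 86.7 in WT and percentile 74.4 in LKO. On chromosome 7 it was Gm44805, whose start site coincides with that of Apoc4, with 2 WT peaks and 1 LKO peak, and Tomm40 with 1 WT peak. The Gm44805 promoter peak, in WT alone, lay at percentile 73.5, and the shared one at percentile 85.0 in WT and 63.3 in LKO. Around Apoa2 it was Pcp4l1 with 2 and 1, Fcer1g with 1 and 0, and Nr1i3, which encodes the nuclear receptor CAR, with 2 WT promoter peaks at percentiles 42.4 and 47.7 and no LKO peak. Counting every peak in these windows, whichever gene it was assigned to, gave 31 in WT and 16 in LKO.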

How the data were processed

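FXR ChIP-seq of male mouse liver was analysed, with 2 ChIP libraries and 1 input for each of 2 genotypes. According to the labels and the study's methods, the authors crosslinked livers with disuccinimidyl glutarate and formaldehyde, immunoprecipitated FXR with antibody E4B8P, sequenced single-end reads and aligned them uniquely to mm10. The submitters' processing notes name Bowtie 1.2 and HOMER 4.10. Per the file headers, peaks were called against input after pooling both ChIP libraries of a genotype, and kept by a DESeq2 comparison of ChIP with input. All listed peaks had thus passed that filter.

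The deposited value of each library at each peak is headed as a tag count, but values are fractional and partly negative, and it was taken as regularized log2 tags fitted over the 3 libraries of a table. The Peak Score column was deposited as a signal, that is pooled ChIP tags per 10000000, and served as an alternative measure of strength. Columns of the authors' fold changes and p-values of ChIP against input were not used. The tables were normalized separately, so no test between genotypes was run. Estimated tags were derived from the log2 values and the library totals in the headers. Intervals are 95% Wilson intervals and cover counting error only. The labels do not state whether replicates were separate mice.

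Sequence came from GRCm38.p6, which has the coordinates of mm10, and 49 of the 50 distances to a TSS came out within 2 bp of those computed from RefSeq. The tools were numpy 2.4.6, scipy 1.17.1, pandas 2.3.3, matplotlib 3.10.9 and pysam 0.24.0 under Python 3.11.15, and the overlap and motif code was tested on simulated data.

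Values per library are given for the strongest peak of each gene in each list, every promoter peak and every peak above the 90th percentile, and the others by counts and ranges. A few more, such as Apoa1 -2098, were chosen after their values were seen. The members and lists were chosen with earlier results of these data known. Alternatives covered the overlap rule, the list used, the scale, input, single libraries and the motif limit.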

Additional observations from a re-analysis of the deposited data

How the results depend on the processing

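Of 43 recomputed summary values, 29 stayed within their interval, within 1.5 times the count or within 1 SD of the replicates, and 14 moved. The WT count of 33 fell to 17 at or above the median strength and to 16 with at least 10 estimated tags in both libraries, the latter limit chosen after seeing the data. The WT share with an LKO partner moved to 69.6% in lists of the same length, against 68.3% of all WT peaks there, and to 81.2% with at least 10 estimated tags, against 75.6%. IR1 shares with at most 1 mismatch were 3.03% in WT and 5.88% in LKO, which is Apoa1 -7135 in each list. The share of all peaks at this limit was not computed. Whether the LKO share lies above that of its list at this limit was therefore not tested.

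The median percentile was 54.5 and 55.9 from WT replicates 2 and 1 alone and 62.7 and 67.3 from LKO replicates 2 and 1 alone, and subtraction of input moved it to 66.9 in LKO. Subtraction of input moved 20 of 22 named percentiles by more than their replicate SD, most in LKO at Apoc2 +1033, from 84.5 to 17.2. Input held few tags at these peaks, so these moves carry its counting error. Leaving out WT replicate 2 moved 3 of 11. Of all 232 values recomputed for single peaks, 158 stayed, 63 moved and 11 changed direction. The 158 include the level differences with 1 library left out, which stayed at 16 of 16 peaks in each such setting. The limit of 1 pooled SD fixes that outcome in advance, so those values say nothing about robustness. The median LKO minus WT level ran from -0.087 to 0.083 with 1 library left out, above 0 without WT replicate 2, LKO replicate 1 or LKO replicate 2. It was -0.37 on the deposited scale, -0.33 after subtraction of input and -1.19 on the library-total scale, which was added after seeing the data. On these scales, the median of all shared peaks was -0.30, -0.046 and -1.12.

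Of the 7 peaks without overlap between the genotypes' libraries, 3 changed direction after subtraction of input. The deposited and library-total scales shift every peak by the same amount, so that a change of direction there means a difference smaller than the shift. On the deposited scale this was Apoa1 -12788 at -0.14, Apoa1 -7135 at -0.045 and Apoa5 -9422 at -0.19. After subtraction of input it was Apoc2 +1033 at -2.17, Apoa1 -12788 at -1.06 and Apoa5 -9422 at -0.061. On the library-total scale it was Apoc2 +1033 at -0.70, Apoa1 -64961 at -0.42, Apoa1 -12788 at -0.96, Apoa1 -7135 at -0.86 and Apoa5 -9422 at -1.0. On that scale all 16 apolipoprotein peaks lay below 0, and 4.50% of all shared peaks lay above it. The cause of the other changes was not tested. No paired analysis was possible because the comparison between genotypes came from no test, and the replicate block was planned only for tables that share a scale. WT replicate 2, with a median of 9.82 estimated tags at these peaks, carries more counting error than the other libraries.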

Other observations

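The promoter peaks of apolipoprotein genes differed widely in strength. Within WT they ran from percentile 7.62 at Apom to percentile 97.9 at Apoa5, and within LKO from percentile 7.24 at Apoa2 to percentile 95.3 at Apoa5. The promoters of Apoa2 and Apoc3 lay at percentiles 62.2 and 60.4 in WT and at percentiles 7.24 and 18.9 in LKO, while the Apoa5 promoter kept a high rank in both. The median of all shared peaks also lay lower in LKO, at percentile 57.7 against 72.2 in WT. Ranked by log2 tags minus input, the values were 19.7 and 76.5 in WT and 30.1 and 42.3 in LKO, so that the order between the lists turned at Apoa2 and held at Apoc3, and the Apoa5 promoter lay at percentiles 98.9 and 97.5. In LKO, both Apoa2 peaks and Apoc3 -44 were lower in replicate 2 than in replicate 1. That direction was common: replicate 2 was the higher one at 32.7% of all LKO peaks and at 5 of 17 apolipoprotein peaks. Replicate 2 minus replicate 1 was -1.66 at Apoa2 -126, -1.10 at Apoa2 -1001 and -0.75 at Apoc3 -44. At the Apoa5 promoter it was -0.16, near the median of -0.17 over all LKO peaks.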
